A study of Mus musculus with 5 samples.

Results

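Ntrk2, Ephb2, Mapt, Sema3b, Adgrv1, Arhgef2 and Enc1 are 7 genes best known from neurons and sensory cells whose transcripts were higher in hepatocyte nuclei of mice with metabolic dysfunction-associated steatohepatitis (MASH). They were found by symbol among the 32285 genes of 5 single-nucleus RNA-seq libraries of mouse liver, and all 7 had a row in each library. They had been picked for their difference between chow and MASH hepatocytes, so every chow against MASH value given for them in hepatocytes describes that choice and supports nothing further. What the choice did not use is the position of the nuclei along the lobule, markers of disease-associated hepatocytes, the presence of several members in 1 nucleus, and other liver lineages. Where another lineage is compared with MASH hepatocytes, the hepatocyte side of the comparison was part of the choice.

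The nuclei came from snap-frozen, sorted preparations of liver from male, wild-type C57BL6/J mice. In the chow group (3 libraries) mice ate a regular chow diet, and in the MASH group (2 libraries) they ate a diet in which fat gave 40% and fructose 20% of the calories, with cholesterol added at 2%. Feeding began at 10 to 12 weeks of age and lasted 5 months in both groups, and no allele or agent other than the diet distinguished them. The sources did not say whether a library was 1 mouse or a pool, so the spread that p-values measure may be technical. In tests between the diets it is the spread between libraries. Tests between zones, marker classes or lineages had library as a block. Their p-values measure how class differences vary from library to library, with 1 estimate shared by chow and MASH.

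Ntrk2 encodes TrkB, the receptor for brain-derived neurotrophic factor, and Ephb2 encodes a receptor tyrosine kinase that binds ephrin-B ligands on neighboring cells. Sema3b encodes a secreted semaphorin that guides growing axons through neuropilins and plexins, and Adgrv1 encodes a very large adhesion G protein-coupled receptor of the Usher complex in hair cells and photoreceptors. Mapt encodes tau, which binds and stabilizes microtubules, Arhgef2 encodes GEF-H1, a RhoA activator held on microtubules, and Enc1 encodes a BTB-Kelch protein that binds actin and serves as an adaptor for ubiquitin ligases. Hepatocytes change along the axis from the portal vein to the central vein, with urea synthesis high on the periportal side and drug metabolism and glutamine synthesis high on the pericentral side.

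Hepatocyte nuclei were defined by at least 2000 UMIs (unique molecular identifiers, each a counted transcript) and at least 1 UMI of Hnf4a, a transcription factor of hepatocytes. This gave 17972 nuclei in chow and 5295 in MASH of 57080 barcodes, with 2611 to 7006 per library and median depths of 3871.5 to 5475 UMIs. Markers of macrophages, stellate cells, cholangiocytes and T cells had higher summed levels in hepatocyte nuclei of both MASH libraries than of every chow library. The summed level of 10 macrophage markers was 42.1 to 56.1 CPM (UMIs scaled to a common total per library) in chow against 265 and 154 in MASH, and that of 10 stellate cell markers was 78.5 to 129 against 247 and 302. Marker levels of endothelial cells (81.5 to 268 in chow, 178 and 219 in MASH) and B cells (13.4 to 81.5, and 18.45 and 16.7) overlapped between the diets. At least 2 marker genes of 1 other lineage were found in 8.41% to 16.5% of chow and in 33.0% and 43.0% of MASH hepatocyte nuclei. The summed level of 20 pan-neuronal markers was 4.32 to 12.7 CPM in chow and 15.3 and 18.1 in MASH, and that of 10 Schwann cell markers was 3.87 to 10.3 and 31.7 and 37.4. Between 0 and 5 barcodes per library held 3 or more pan-neuronal markers and 0 to 3 held 3 or more Schwann cell markers. The part of these transcripts in the members' levels was not tested, and fold changes without the nuclei that carried them are given below. The libraries shared 23 to 48 barcodes per pair, at most 0.399% of the smaller library.

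In GRCm38 coordinates of the GENCODE annotation, Ntrk2 lies on the plus strand at chr13:58806569-59133970, Adgrv1 on the minus strand at chr13:81095068-81633154 and Enc1 on the plus strand at chr13:97241105-97253034. Ephb2 is on the minus strand at chr4:136647539-136835988, Mapt on the plus strand at chr11:104231390-104332090, Sema3b on the minus strand at chr9:107597674-107609229 and Arhgef2 on the plus strand at chr3:88605966-88648052. All are protein-coding. Over their whole length, Ntrk2 and Adgrv1 each overlap another annotated gene on their own strand (C630044B11Rik and Gm48566). Any effect of this on their UMI counts was not tested. Mapt and Arhgef2 overlap genes on the opposite strand only, and Ephb2, Sema3b and Enc1 overlap none.

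RefSeq promoters (GRCm38.p6) were available for 4 members, Ntrk2, Ephb2, Adgrv1 and Arhgef2, in 7 windows. The 250 bases before the start are shown for the 3 receptor genes, of which Ntrk2 and Ephb2 were close to absent in chow hepatocytes, at chr13:58806319-58806568 on the plus strand, chr4:136836013-136836262 on the minus strand and chr13:81633145-81633394 on the minus strand, with capitals marking GGACAG, the right part of the RE1 element bound by the neuronal repressor REST.
Ntrk2: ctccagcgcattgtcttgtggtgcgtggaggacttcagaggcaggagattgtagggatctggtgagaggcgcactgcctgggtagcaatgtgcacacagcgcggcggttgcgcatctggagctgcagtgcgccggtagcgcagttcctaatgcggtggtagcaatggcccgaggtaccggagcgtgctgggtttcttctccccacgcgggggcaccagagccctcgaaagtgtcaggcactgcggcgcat
Ephb2: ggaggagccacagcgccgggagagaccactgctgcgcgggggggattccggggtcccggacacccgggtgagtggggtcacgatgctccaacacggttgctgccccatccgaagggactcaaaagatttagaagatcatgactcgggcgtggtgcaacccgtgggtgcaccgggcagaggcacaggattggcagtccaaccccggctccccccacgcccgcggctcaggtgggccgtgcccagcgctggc
Adgrv1: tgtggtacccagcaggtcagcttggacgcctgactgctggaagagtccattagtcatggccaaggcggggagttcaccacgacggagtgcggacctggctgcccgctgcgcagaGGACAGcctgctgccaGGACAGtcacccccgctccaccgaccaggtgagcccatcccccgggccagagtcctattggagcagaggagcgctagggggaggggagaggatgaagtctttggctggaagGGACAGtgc
On either strand, GGACAG was present in 3 of the 7 member windows (Adgrv1 and Arhgef2) and in 22.2% of all 32851 promoters of the same length, which run from 250 bases before to 50 after the start. The left part of RE1 (TTCAGCACC), the AP-1 motif (TGANTCA), the TEAD motif (GGAATG), an E-box (CAGCTG) and an HNF4A motif (CAAAGTCCA) were in 0 of the 7 windows, against 0.371%, 7.81%, 14.7%, 16.3% and 0.475% of all promoters. None of these motifs contains another, and a missing match says only that those letters are not in these windows.

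In hepatocyte nuclei all 7 members were higher in both MASH libraries than in all 3 chow libraries. The levels are CPM, from UMIs summed over the hepatocyte nuclei of a library and scaled by TMM, a correction for differences in composition. Among the 3 receptors, Ntrk2 stood at 0.115, 0.0703 and 0.101 in chow replicates 1 to 3 and at 40.8 and 38.2 in MASH replicates 1 and 2. Ephb2 stood at 0.192, 0.105 and 0.0673 in chow and at 31.6 and 31.8 in MASH. Both receptors were nearly absent from chow, with 2 to 5 UMIs in any chow library against 530 to 795 in a MASH library. Pooled over libraries, the rate of Ntrk2 UMIs was 538-fold higher in MASH (95% counting interval 272 to 1250) and that of Ephb2 346-fold (188 to 724), where the intervals cover counting error only. Adgrv1 stood at 1.27, 0.422 and 0.269 in chow and at 16.9 and 13.1 in MASH, a log2 fold change of 4.53 (SE 0.60). The groups did not overlap.

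The ligand Sema3b stood at 1.07, 0.914 and 0.404 in chow and at 25.3 and 27.9 in MASH, a log2 fold change of 5.06 (SE 0.42). Mapt stood at 4.80, 3.06 and 2.56 in chow and at 73.3 and 67.3 in MASH, a log2 fold change of 4.34 (SE 0.32). For both genes the MASH libraries lay close together and far above every chow library. Arhgef2 stood at 7.02, 2.53 and 3.87 in chow and at 35.4 and 47.5 in MASH, a log2 fold change of 3.21 (SE 0.42). Enc1 stood at 3.15, 2.74 and 4.0 in chow and at 32.8 and 31.9 in MASH, a log2 fold change of 3.29 (SE 0.27). For both genes the MASH libraries lay above every chow library.

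All 7 members were called higher in edgeR's quasi-likelihood test at an adjusted p under 0.05, where 9.26% of the 15414 genes tested passed as higher in MASH and 4.48% as lower, and both MASH libraries exceeded all chow libraries for 30.1% of them. Since the members were picked on this contrast, nothing is read from that count. Without the nuclei that carried at least 2 marker genes of another lineage, the log2 fold changes were 8.68 for Ntrk2, 9.94 for Ephb2, 5.97 for Mapt, 5.32 for Sema3b, 4.70 for Adgrv1, 5.13 for Arhgef2 and 3.49 for Enc1. Each was larger than with those nuclei, and those of Ntrk2 and Ephb2 rest on few chow UMIs.

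**Figure D1:**
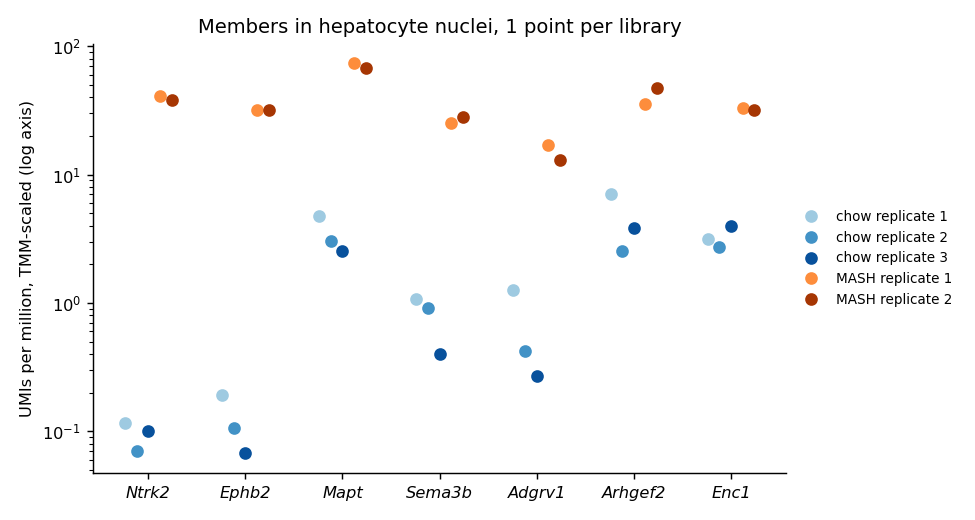
Level of each member in hepatocyte nuclei, 1 point per library, in TMM-scaled CPM on a log axis (chow in blue, MASH in orange). For each gene both MASH points lie above the 3 chow points; Ntrk2 runs from 0.0703 to 40.8 and Enc1 from 2.74 to 32.8.

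The members were spread over many nuclei. With every nucleus thinned to 2000 UMIs, Ntrk2 had a UMI in 8.23% of hepatocyte nuclei in MASH replicate 1 (95% exact interval 7.22% to 9.34%) and in 8.23% in replicate 2 (7.21% to 9.36%). The corresponding shares were 6.33% and 6.59% for Ephb2, 12.7% and 13.3% for Mapt, 5.10% and 6.28% for Sema3b, 3.06% and 2.99% for Adgrv1, 6.18% and 9.88% for Arhgef2 and 6.48% and 5.82% for Enc1. Arhgef2 was the member for which the 2 libraries differed beyond counting error, with intervals of 5.30% to 7.16% and 8.76% to 11.1%. In chow, the shares of the 7 genes were 0.971% or lower in every library, and Ntrk2 was found in 1, 2 and 0 thinned nuclei, the last among 7006 nuclei, where 3 counts would be a share with a UMI of 0.0428% (exact upper limit 0.0526%). At least 1 of the 7 members was found in 38.8% and 43.0% of MASH and in 3.06%, 1.54% and 1.38% of chow hepatocyte nuclei.

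At full depth, Ntrk2 had a UMI in 18.0% and 19.0% of MASH hepatocyte nuclei, whose median depths were 4870.5 and 5475 UMIs. In macrophage-like nuclei of the same libraries it had a UMI in 3.05% and 3.20% at median depths of 1351 and 1313.5 UMIs. These shares are at unlike depths. In CPM without TMM scaling, Ntrk2 averaged 24.5 in macrophage-like and 45.5 in hepatocyte nuclei of MASH livers. Hepatocyte markers in these macrophage-like nuclei stood at 136% and 70.9% of their level in hepatocyte nuclei. A single hepatocyte nucleus held at most 8 Ntrk2 UMIs in MASH replicate 1 and 12 in replicate 2, and 352 of 484 and 320 of 497 positive nuclei held exactly 1. For Mapt, 433 of 721 and 499 of 813 positive nuclei held 1 UMI and the highest held 10 and 13. Most positive nuclei of these 2 genes rested on 1 UMI.

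Within MASH, 6 of the 7 members differed along the lobule, and they did so in opposite directions. Hepatocyte nuclei of each library were ordered by the mean scaled level of 10 pericentral markers minus that of 10 periportal markers, none of them a member, and divided into 3 equal classes, so the classes are ranges of a score and not cell types (9.14% to 11.8% of nuclei lay within 0.05 of a boundary). Ephb2, Sema3b and Adgrv1 were higher in the pericentral class, and Ntrk2, Mapt and Arhgef2 in the periportal class. Among all 14613 genes tested, 6.86% were called higher and 8.82% lower in the pericentral class.

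Sema3b stood at 46.2 and 51.8 CPM in the pericentral class of MASH replicates 1 and 2 and at 6.82 and 9.02 in their periportal class, a log2 difference of 2.62 (SE 0.20, edgeR adjusted p 1e-07). Adgrv1 stood at 34.3 and 24.5 against 4.24 and 6.73, a log2 difference of 2.36 (SE 0.24, adjusted p 2.52e-06). The pericentral and periportal values did not overlap for either gene, and the steepest part of the Sema3b profile was its most pericentral end, where the last of 10 equal bins reached 92.0 and 108 CPM and the first held 2.05 and 5.33. Ephb2 stood at 43.0 and 43.8 against 16.8 and 17.6, a log2 difference of 1.34 (SE 0.14, adjusted p 5.61e-06). Its profile was flatter than that of Sema3b, and it was highest in bin 7 of MASH replicate 1 and in bin 10 of replicate 2.

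Ntrk2 ran the other way, with 26.9 and 16.9 CPM in the pericentral and 57.8 and 69.6 in the periportal class, a log2 difference of -1.58 (SE 0.18, adjusted p 8.62e-06). From the first to the last of the 10 bins it went from 73.0 to 11.3 in MASH replicate 1 and from 112 to 10.0 in replicate 2. Ntrk2 and Ephb2, both receptor tyrosine kinases, thus ran in opposite directions along the score. Mapt stood at 46.0 and 42.5 in the pericentral and 90.3 and 88.8 in the periportal class, a log2 difference of -1.02 (SE 0.12, adjusted p 1.32e-05). Arhgef2 stood at 22.1 and 36.1 against 39.6 and 55.3, a log2 difference of -0.70 (SE 0.13, adjusted p 0.00120). Between the middle and the periportal class neither Mapt (-0.18, adjusted p 0.565) nor Arhgef2 (0.05, adjusted p 0.94) passed. Arhgef2 was highest in the middle bins, 63.5 in bin 5 of MASH replicate 1 and 75.6 in bin 4 of replicate 2, and without MASH replicate 1 its difference was -0.60 with an adjusted p of 0.0736 (range over 11 alternatives 3.11e-07 to 0.0736). Enc1 stood at 37.3 and 32.0 in the pericentral and 25.8 and 27.1 in the periportal class, a difference of 0.38 (SE 0.13) that missed the threshold (adjusted p 0.0541) and passed it under 8 of 11 alternatives (0.00937 to 0.540, the highest without MASH replicate 1).

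**Figure D2:**
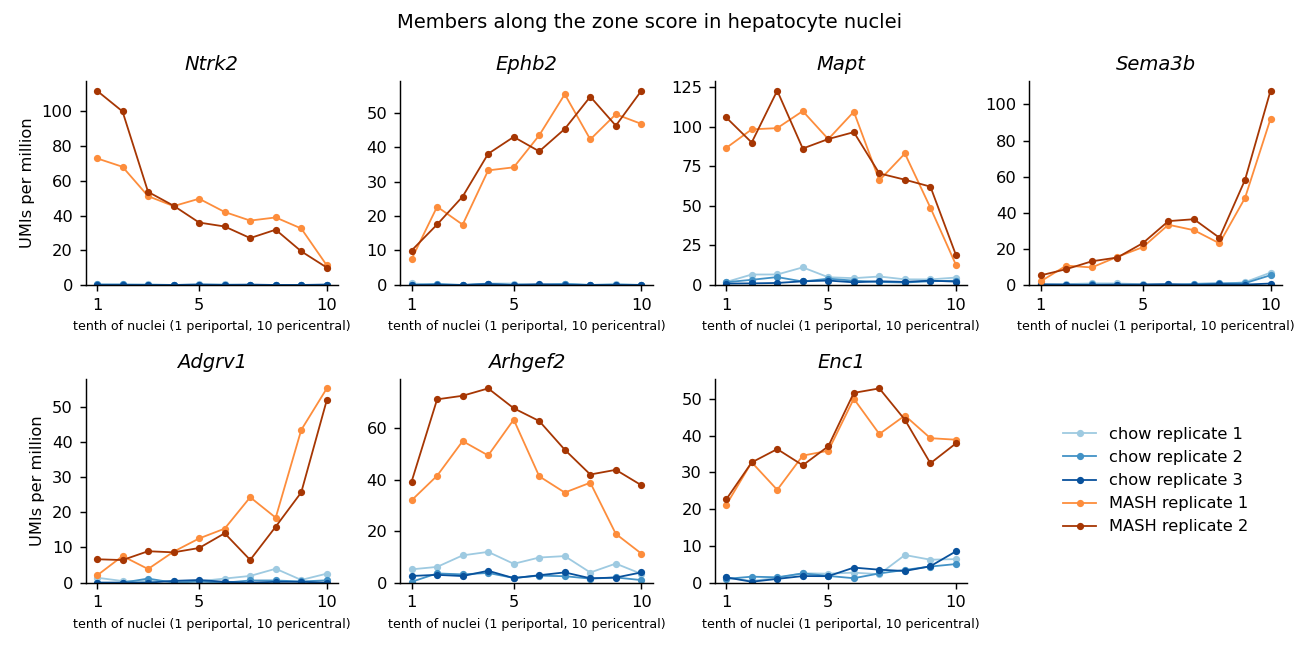
Members along the zone score, with the hepatocyte nuclei of each library split into 10 equal bins from periportal (1) to pericentral (10) and CPM, not TMM-scaled, on the vertical axis (1 line per library). In the MASH libraries Sema3b and Adgrv1 climb towards bin 10, Ntrk2 falls towards it, and Arhgef2 is highest in bins 4 and 5.

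Genes that were not used for the score served as a check of the classes. In MASH, Oat, Tbx3, Slco1b2 and Rnf43, which are pericentral genes, were higher in the pericentral class by 3.08, 3.25, 1.09 and 1.52 on the log2 scale, and the periportal genes Hsd17b13, Arg1 and Cdh1 were lower by log2 differences of -1.91, -1.91 and -0.98. Apoa4, also listed as periportal, was the exception in MASH with a difference of 0.20 (adjusted p 0.0826), although in chow it was lower in the pericentral class (-1.66). The classes of a MASH library had similar depth, with medians of 4789.5, 4818 and 4961 UMIs from periportal to pericentral in replicate 1 and 5189.5, 5496 and 5698 in replicate 2.

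In chow hepatocytes 2 members had a zonal difference, Sema3b and Enc1, where 13.9% of genes passed as higher and 12.9% as lower in the pericentral class. Sema3b stood at 2.31, 2.49 and 0.580 CPM in the pericentral and at 0.399, 0.210 and 0.213 in the periportal class, a log2 difference of 2.65 (SE 0.55, adjusted p 0.00155). Enc1 stood at 5.84, 4.36 and 6.48 against 1.33, 1.79 and 1.60, a log2 difference of 1.80 (SE 0.22, adjusted p 9.29e-06). In both cases every pericentral value exceeded every periportal one, but Sema3b rested on few UMIs. It had 21, 24 and 6 in the pericentral and 3, 2 and 2 in the periportal class of chow replicates 1 to 3. The differences of Mapt (-0.42, adjusted p 0.234), Adgrv1 (1.01, adjusted p 0.216) and Arhgef2 (-0.58, adjusted p 0.0515) did not pass, and the 8 UMIs of Ntrk2 and 10 of Ephb2 in all chow hepatocyte nuclei were too few to describe by zone. Mapt passed without chow replicate 3 (-0.83, adjusted p 0.00907; range over 10 alternatives 0.00907 to 0.95), as did Arhgef2 (-0.84, adjusted p 0.0221; range 0.0183 to 0.311).

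The zonal difference of Enc1 was smaller in MASH than in chow by a log2 difference of -1.42 (SE 0.26, adjusted p 0.00379 in the interaction test, where 2.45% of genes passed as higher and 2.98% as lower). Its periportal level was 1.33 to 1.79 in chow and 25.8 and 27.1 in MASH, and its pericentral level 4.36 to 6.48 and 37.3 and 32.0. Without MASH replicate 2 the interaction was -1.25 and missed the threshold (adjusted p 0.0900; range over 10 alternatives 1.14e-05 to 0.0900). For the other 6 members the interaction missed the threshold in edgeR's test, so their zonal differences were not shown to differ between the diets.

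In MASH, 5 of the members were higher and Ntrk2 was lower in nuclei with markers of disease-associated hepatocytes (daHep), a hepatocyte population of injured liver. For this comparison each nucleus was thinned to 2000 UMIs and sorted by how many of 6 daHep markers it carried (Nrg1, Anxa2, Gdf15, Sox4, Klf6 and Jun), and full UMI sums of nuclei with at least 2 were compared with those of nuclei with none. In MASH replicates 1 and 2 there were 904 and 769 nuclei with at least 2 markers and 868 and 889 with none. Independent detection of the 6 markers within zone classes would give 900 and 773 nuclei with at least 2. The class is thus a count of markers and was not shown to be a separate population. Of the 14006 genes tested, 4.06% were called higher and 4.46% lower in the nuclei with at least 2.

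Mapt stood at 99.2 and 90.8 CPM in nuclei with at least 2 daHep markers and at 54.5 and 58.5 in nuclei with none, a log2 difference of 0.74 (SE 0.09, edgeR adjusted p 2.06e-09). Ephb2 stood at 40.3 and 44.5 against 24.3 and 24.9, a difference of 0.79 (SE 0.13, adjusted p 5.24e-06). These values did not overlap between the classes, and nuclei with exactly 1 marker lay between them for both genes. The differences were 0.67 for Sema3b (SE 0.14, adjusted p 0.000383), 0.66 for Arhgef2 (SE 0.11, adjusted p 8.96e-06) and 0.60 for Enc1 (SE 0.12, adjusted p 0.000222). Ntrk2 stood at 33.1 and 31.6 with at least 2 markers and at 52.7 and 52.6 with none, a difference of -0.71 (SE 0.11, adjusted p 3.86e-06), and it too had intermediate values, 43.5 and 37.8, in nuclei with 1 marker. Adgrv1 stood at 14.5 and 12.8 against 17.3 and 14.8, a difference of -0.24 (SE 0.20) that did not pass (adjusted p 0.603).

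Nuclei with at least 2 markers were less often in the periportal class, at 28.2% and 28.9% against 38.0% and 37.7% of nuclei with none. Compared within each zone class of each MASH library, the values for nuclei with at least 2 markers were higher in 6 of 6 combinations for Ephb2, Mapt, Sema3b and Arhgef2 and in 5 of 6 for Enc1, and lower in 6 of 6 for Ntrk2. Adgrv1 was higher in 3 and lower in 3. The 5 higher and 1 lower calls were also made without nuclei that carried 2 marker genes of another lineage. Without MASH replicate 2, Mapt and Ntrk2 still passed, whereas Ephb2 (0.73, adjusted p 0.0727), Sema3b (0.54, adjusted p 0.355), Arhgef2 (0.58, adjusted p 0.109) and Enc1 (0.50, adjusted p 0.258) kept their direction but did not, and these 4 p-values were the highest among 12 alternatives for each gene, whose lowest ranged from 2.44e-08 to 2.26e-05.

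**Figure D3:**
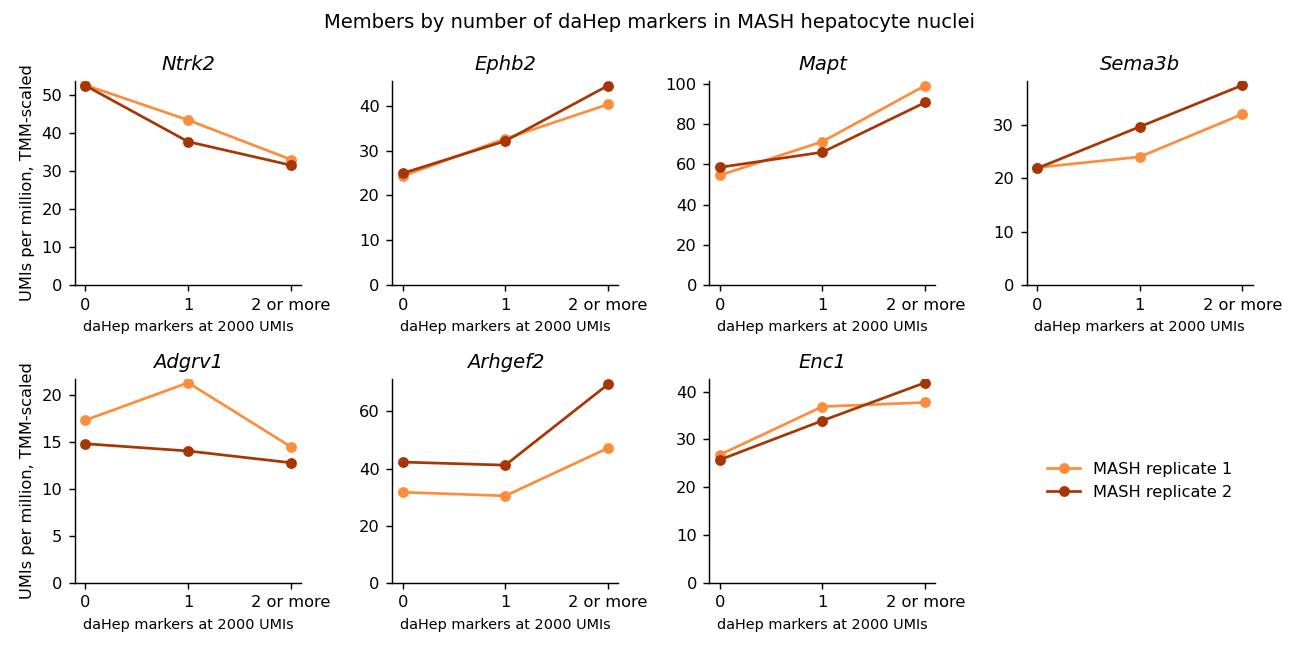
Members in MASH hepatocyte nuclei with 0, 1 or at least 2 daHep markers at 2000 UMIs, in TMM-scaled CPM, 1 line per library. In both libraries Mapt climbs from 54.5 and 58.5 to 99.2 and 90.8 and Ntrk2 falls from 52.7 and 52.6 to 33.1 and 31.6.

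Counts of MASH hepatocyte nuclei with several members lay near those that independent detection would give. At 2000 UMIs, 216 hepatocyte nuclei of MASH replicate 1 carried 2 or more members, against 205 expected if each member were detected independently within a zone class, a ratio of 1.05 (95% counting interval 0.918 to 1.20). In MASH replicate 2 it was 225 nuclei against 238, a ratio of 0.947 (0.827 to 1.08). The 2 libraries thus lay on either side of 1, and neither interval left it at 2000 UMIs. For comparison, 7 housekeeping genes counted in the same way gave ratios of 1.02 and 1.02, and the 6 daHep markers gave 1.0 and 0.995. The paper describes the daHep markers as enriched in a hepatocyte subpopulation of MASH liver. At this depth the count did not set those markers apart from housekeeping genes. It therefore cannot decide whether the members share a population of nuclei, and their independence was not shown. In chow only 3, 2 and 4 nuclei carried 2 or more members, against 1.59, 0.615 and 0.518 expected, and the ratio of chow replicate 3 (7.73, interval 2.11 to 19.8) rested on those 4 nuclei and was 1.44, from 1 nucleus, with a second random thinning. Without nuclei that carried 2 marker genes of another lineage, these chow counts were 0, 1 and 0. At full depth the chow counts were 38, 12 and 16, with ratios of 3.37 (2.38 to 4.62), 3.75 (1.94 to 6.55) and 3.73 (2.13 to 6.06). The full-depth MASH ratios were 0.973 (0.907 to 1.04) and 0.928 (0.871 to 0.988), and those of the housekeeping genes there 0.944 and 0.919. These ratios are descriptions, since nuclei are not replicates.

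Of the 21 pairs of members, 7 had more shared nuclei than expected in both MASH libraries and 5 had fewer in both, and for 0 of 21 did the counting interval leave 1 in both. Sema3b and Adgrv1, the members with the steepest pericentral profiles, shared 6 and 10 nuclei against 6.40 and 6.80 expected within zone classes. Without the split by zone their ratios were 1.43 and 2.04, against 0.937 and 1.47 with it. Mapt and Arhgef2, both low in the pericentral class, shared 26 and 45 nuclei against 22.9 and 35.3, ratios of 1.14 and 1.27. Ntrk2 and Ephb2 shared 10 and 11 against 12.1 and 11.2. Adgrv1 and Enc1 shared 12 against 5.81 in MASH replicate 1, the only pair and library whose interval lay above 1 (1.07 to 3.61), and 5 against 4.75 in replicate 2. With the 6 daHep markers, the ratios of Mapt were above 1 in both libraries for Nrg1 (1.41, interval 1.18 to 1.68, and 1.20, 0.964 to 1.47), Gdf15, Sox4, Klf6 and Jun, and 0.989 and 0.652 for Anxa2. Those of Ntrk2 were below 1 in both libraries for Nrg1 (0.872, interval 0.647 to 1.15, and 0.711, 0.492 to 0.993), Anxa2, Gdf15, Klf6 and Jun, and 1.11 and 1.07 for Sox4. Among pairs of a member with a daHep marker, both intervals lay above 1 for Mapt with Gdf15 and with Klf6. The same held for Ephb2 with Gdf15 (1.31, 1.02 to 1.67, and 1.33, 1.01 to 1.70) and Arhgef2 with Anxa2 (1.63, 1.09 to 2.34, and 1.60, 1.11 to 2.22). For no such pair did both lie below 1.

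**Figure D4:**
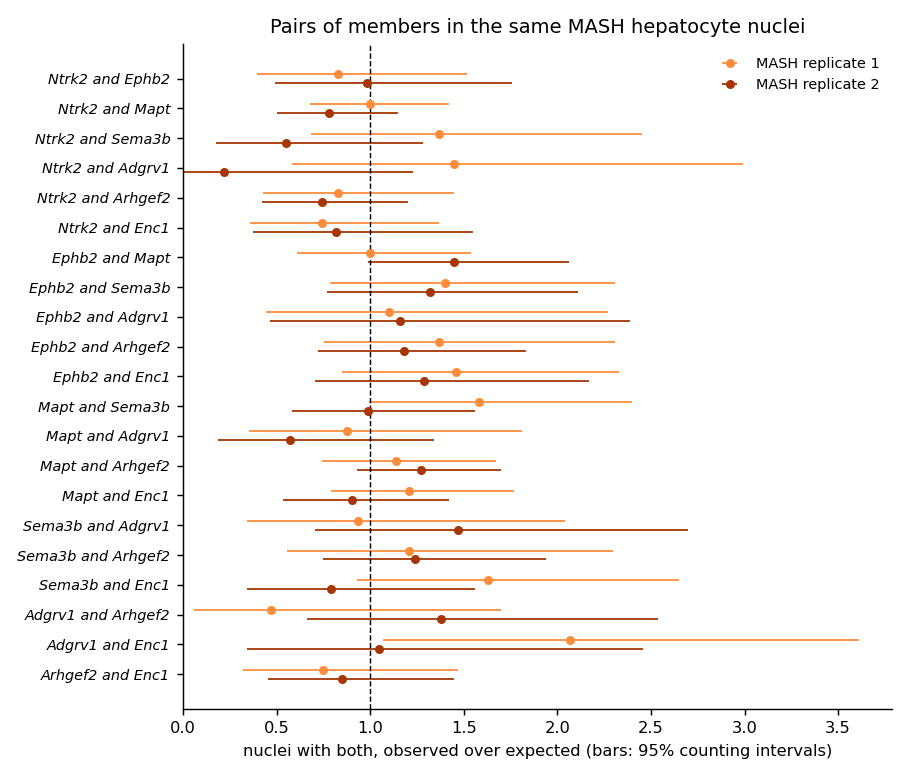
Nuclei with both members of a pair over the number expected from independent detection within zone classes, for the 21 pairs in each MASH library, with 95% counting intervals and a dashed line at 1. Points of the 2 libraries lie on both sides of the line, and for 0 pairs do both intervals leave it.

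The nuclei with 2 or more members differed little from those with none in depth (medians of 5143.5 against 4811 UMIs in MASH replicate 1 and 5243 against 5512 in replicate 2). At least 2 marker genes of another lineage were in 43.1% of them against 31.8% of nuclei with none in replicate 1, and in 37.8% against 42.3% in replicate 2, and the part of this in the list that follows was not tested. Among 9354 genes found in at least 5% of these carriers in both libraries, the 10 with the highest mean log2 ratio between carriers and nuclei with none included Fam129a (0.96), Myc (0.89), Trim47 (0.79), BC028528 (0.79), Nrg1 (0.76), Nav1 (0.72), 2610203C22Rik (0.71), Rnf144a (0.71) and Sema4c (0.69). Of the 6 daHep markers Nrg1 ranked 5, Klf6 36, Gdf15 57, Jun 153, Sox4 155 and Anxa2 1831. This likeness was ranked over 2 libraries, has no test, and compares nuclei that share a library.

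Outside hepatocytes, the lineage with the highest level in MASH was not the same for all members. Nuclei with no Hnf4a UMI and at least 3 markers of 1 lineage were called stellate-like (1010 in chow and 2297 in MASH), endothelial-like (1179 and 1049), macrophage-like (309 and 1319) or cholangiocyte-like (21 and 767), and there were 51 and 125 T-like and 39 and 92 B-like nuclei. Transcripts of hepatocyte markers such as Alb and Apob were in all of them, at 70.9% to 161% of their summed level in hepatocyte nuclei of the same library for classes of 20 or more nuclei. The part of hepatocyte transcripts in the members' levels in these lineages was not tested. Levels below are CPM without TMM scaling, and the tests are edgeR's between lineages within MASH. The members were picked for high levels in these same MASH hepatocyte nuclei. This favors calls lower than hepatocytes, so such calls are descriptions.

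Mapt and Arhgef2 had high levels in some of the other lineages in chow. In stellate-like nuclei, from the fibroblast-like cells that make scar collagen, Mapt averaged 220 ± 111 CPM in chow (SD, n = 3, with 121 to 340) and 146 ± 20.7 in MASH (SD, n = 2), against 3.32 ± 1.72 and 81.0 ± 0.516 in hepatocyte nuclei. Within MASH its stellate-like level exceeded the hepatocyte level by 0.95 on the log2 scale (SE 0.23, adjusted p 0.000693), where 16.7% of 13421 genes were called higher and 15.3% lower in stellate-like nuclei. In endothelial-like, macrophage-like and cholangiocyte-like nuclei Mapt was lower than in hepatocytes, by log2 differences of -1.83, -1.77 and -1.0 (adjusted p 2.53e-06, 8.72e-07 and 0.00782). The stellate-like call was lost without MASH replicate 1 (adjusted p 4.73e-05 to 0.228 over 9 alternatives), with a difference of 0.74 to 1.09 leaving out 1 library, and the cholangiocyte-like call without either MASH library (0.00252 to 0.352), with a difference of -1.92 to -0.71.

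Arhgef2 was higher in macrophage-like, endothelial-like and stellate-like nuclei than in hepatocytes of MASH livers. It averaged 252 ± 94.5 CPM in macrophage-like, 139 ± 49.6 in endothelial-like and 90.6 ± 30.9 in stellate-like nuclei of MASH livers, against 48.1 ± 12.5 in hepatocyte nuclei (SD, n = 2 each). The log2 differences from hepatocytes were 2.39 (SE 0.26, adjusted p 1.29e-11), 1.45 (SE 0.27, adjusted p 1.95e-05) and 0.99 (SE 0.26, adjusted p 0.00180). The cholangiocyte-like (0.69, adjusted p 0.0910), T-like (0.64, adjusted p 0.472) and B-like differences (1.20, adjusted p 0.141) did not pass. In chow it averaged 181 ± 93.2 CPM in macrophage-like, 78.1 ± 14.5 in endothelial-like and 41.9 ± 26.9 in stellate-like nuclei and 4.30 ± 2.94 in hepatocyte nuclei (SD, n = 3). In both MASH libraries the order of these 4 was macrophage-like, endothelial-like, stellate-like and hepatocyte. The macrophage-like difference passed under each of 9 alternatives, the endothelial-like one missed without MASH replicate 2 (range 1.57e-08 to 0.0547) and the stellate-like one without either MASH library (4.79e-05 to 0.212). Among all genes 17.1% passed as higher and 18.6% as lower in macrophage-like, and 13.5% and 13.1% in endothelial-like nuclei.

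Among MASH lineages Enc1 and Adgrv1 were highest in cholangiocyte-like nuclei, from the cells that line the bile ducts. Enc1 averaged 84.5 ± 18.4 CPM there against 37.3 ± 1.28 in hepatocyte nuclei of MASH livers, and Adgrv1 averaged 38.2 ± 1.10 against 17.2 ± 2.21 (SD, n = 2). The log2 differences were 1.18 (SE 0.28, adjusted p 0.00104) and 1.14 (SE 0.42, adjusted p 0.0408), with 10.4% of genes passing as higher and 10.4% as lower. In the other 3 large lineages the levels of Enc1 were 23.4 to 28.7 and those of Adgrv1 11.6 to 13.9, and 0 of these 6 comparisons passed in edgeR's test (1 had an unadjusted p under 0.05, Enc1 in macrophage-like nuclei at 0.0396). Both cholangiocyte-like calls were lost without either MASH library (ranges over 9 alternatives 7.72e-05 to 0.589 for Enc1 and 0.00563 to 0.734 for Adgrv1).

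No comparison of Ntrk2, Ephb2 or Sema3b with hepatocytes passed in the higher direction. Ntrk2 averaged 20.7 in stellate-like, 20.0 in endothelial-like and 24.5 in macrophage-like nuclei of MASH livers against 45.5 in hepatocyte nuclei, with log2 differences of -1.07, -1.22 and -0.88 (adjusted p 0.00242, 0.00413 and 0.0197). In cholangiocyte-like nuclei it stood at 55.2 and 44.4 in the 2 libraries, and the difference from hepatocytes of 0.04 (SE 0.31, adjusted p 0.965) left either direction possible. Sema3b was lowest in stellate-like nuclei, at 6.15 ± 1.27 against 30.7 ± 3.83 in hepatocytes (-2.25, SE 0.41, adjusted p 6.66e-06), and it had 0 UMIs in the 1010 stellate-like nuclei of chow livers, where 3 counts in a library would be 4.72 to 11 CPM. Ephb2 was lower in endothelial-like (-1.57, adjusted p 0.00164), macrophage-like (-1.48, adjusted p 0.000819) and cholangiocyte-like nuclei (-1.28, adjusted p 0.0156), whereas its stellate-like level of 33.1 ± 5.23 stood beside a hepatocyte level of 36.6 ± 2.13 (-0.05, SE 0.29, adjusted p 0.929). Without MASH replicate 2 none of these Ntrk2, Ephb2 and Sema3b calls passed, and without MASH replicate 1 the calls of Ntrk2 and Sema3b in stellate-like and of Ephb2 in endothelial-like and macrophage-like nuclei did. The adjusted p over 9 alternatives reached 0.479, 0.239 and 0.348 for Ntrk2 in stellate-like, endothelial-like and macrophage-like nuclei, 0.0722 for Sema3b in stellate-like nuclei, and 0.347, 0.213 and 0.724 for Ephb2 in endothelial-like, macrophage-like and cholangiocyte-like nuclei, from lowest values of 2.33e-08 to 0.00493.

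Over all 6 lineages 20 comparisons of a member with hepatocytes passed, 6 higher and 14 lower, among them Ntrk2 in T-like nuclei (6.19% of genes passing as higher and 8.18% as lower) and Mapt in B-like nuclei (4.34% and 7.19%). The choice of the members favored the lower direction, and nothing is read from the larger number of lower calls. Of these 9 passed without MASH replicate 1 and 5 without MASH replicate 2. Under both, Mapt stayed lower in endothelial-like and macrophage-like nuclei and Arhgef2 stayed higher in macrophage-like nuclei (adjusted p at most 0.0154, 0.00527 and 0.000147 over 9 alternatives). With at least 2 rather than 3 markers required for a lineage, 16 of the 20 passed.

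**Figure D5:**
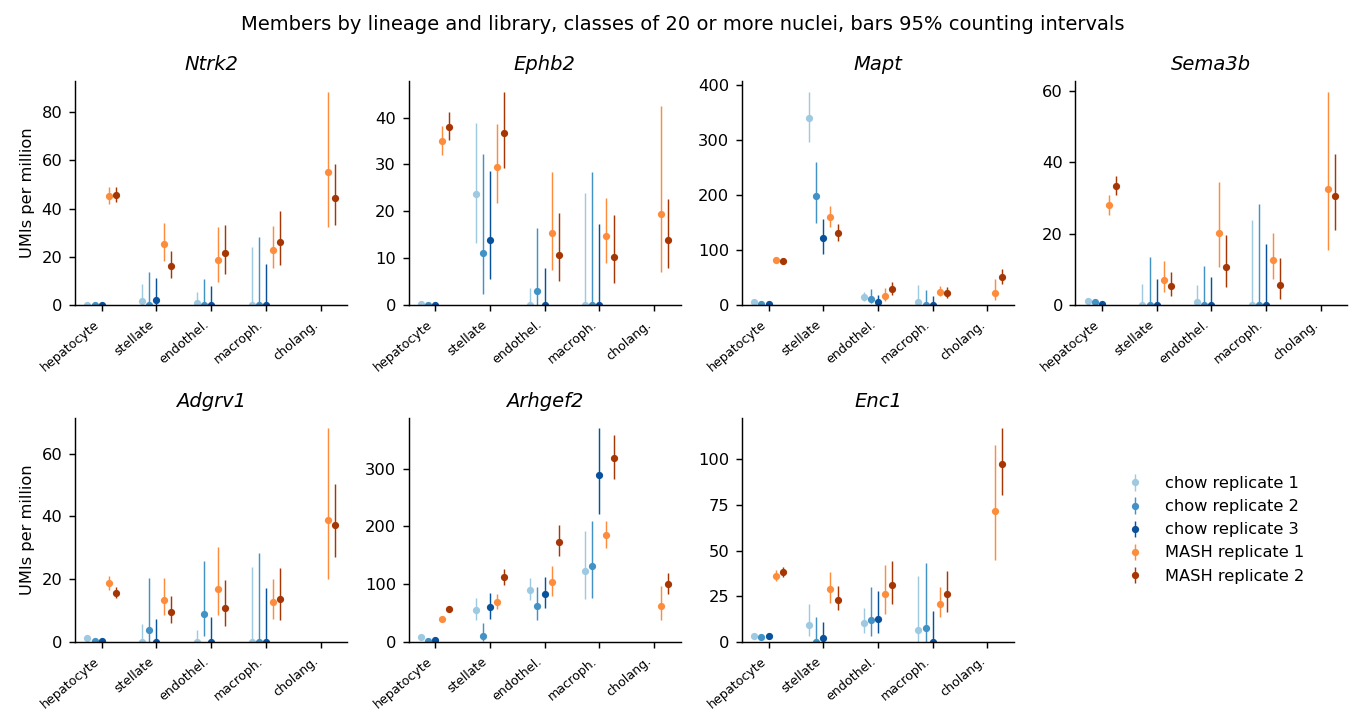
Level of each member by lineage and library for classes of 20 or more nuclei, in CPM without TMM scaling, with 95% counting intervals as bars. Mapt is highest in stellate-like, Arhgef2 in macrophage-like and Enc1 and Adgrv1 in cholangiocyte-like nuclei of MASH livers.

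Mean levels were higher in MASH than in chow for each member in stellate-like, endothelial-like and macrophage-like nuclei, except Mapt in stellate-like nuclei. Adgrv1, for example, averaged 1.23, 2.95 and 0 CPM in these 3 lineages in chow and 11.6, 13.9 and 13.1 in MASH. The part of hepatocyte transcripts in this rise was not tested. Between the diets, 1 test of a member within another lineage passed. Ntrk2 was higher in endothelial-like nuclei of MASH livers (32 UMIs against 1 in chow, log2 fold change 4.78, SE 0.91, adjusted p 0.0256), where 0.496% of 9077 genes passed as higher and 0.529% as lower. The pooled rates differed 36.3-fold with a counting interval of 6.06 to 1480, and the call was lost without chow replicate 2 (4.61, adjusted p 0.0662) and without MASH replicate 1 (4.79, adjusted p 0.222; range over 8 alternatives 0.000160 to 0.222). In stellate-like nuclei Ntrk2 had 80 UMIs in MASH and 2 in chow, 14.1-fold (3.79 to 119) in the pooled rates, and missed the threshold (3.74, SE 0.80, adjusted p 0.0537; range over 8 alternatives 0.000169 to 0.403). The difference of Mapt in stellate-like nuclei was -0.60 on the log2 scale (SE 0.38, adjusted p 0.472) and that of Arhgef2 in macrophage-like nuclei 0.41 (SE 0.45, adjusted p 0.836), and neither passed, where 0.504% of genes passed as higher and 0.650% as lower in stellate-like and 0.482% and 0.754% in macrophage-like nuclei. In a fit with a replicate block, the endothelial-like difference missed (adjusted p 0.0705) and the stellate-like one passed (0.0191). Enc1 in stellate-like (2.38, SE 0.62, adjusted p 0.103) and endothelial-like nuclei (1.29, adjusted p 0.269) and Ephb2 in stellate-like nuclei (0.90, adjusted p 0.266) did not pass, with unadjusted p of 0.00289, 0.0171 and 0.0332. In all, 5 members were tested in stellate-like, 4 in endothelial-like and 1 in macrophage-like nuclei. The rest did not pass edgeR's filter on low counts, which does not mean that they were absent in MASH. Among them, macrophage-like Ntrk2 had 54 UMIs in MASH and 0 in chow, and stellate-like Adgrv1 had 45 and 1.

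Of the genes that share a family or pathway with a member, 18 of 152 tested rose (11.8%) and 4 fell (2.63%) in MASH hepatocytes over 7 lists, 6 of which are described here. Of all genes tested, 9.26% rose and 4.48% fell, and nothing particular to the lists is read from their shares. In each list the larger part of the genes did not pass, and the lists' median log2 fold changes were 0.11 to 0.96, against 0.00 over all genes tested. Among the neurotrophin genes 1 of 10 rose, Sorl1, a sorting receptor, from 0.808 to 1.30 CPM in chow to 8.41 and 5.91 in MASH (2.73 on the log2 scale, edgeR adjusted p 0.00896). Among the Eph receptors and ephrins 4 of 13 rose and 1 fell. Ephb3 (3.36, adjusted p 0.0468) and Epha3 (2.32, adjusted p 0.0323) rose at levels of at most 1.49 CPM, and the ligand Efnb3 fell (-2.24, adjusted p 0.0413), from 1.07 to 1.58 in chow to 0.239 and 0.288 in MASH. The others called, Epha7 and Epha2, had log2 fold changes of 1.84 and 1.21. Epha7, Epha2, Nrp1, Sema6b and Adgre1 are named after their values were seen, the other family genes by their rank in fold change.

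Among the semaphorins, plexins and neuropilins 3 of 25 rose and 2 fell. Sema5a (4.57, adjusted p 0.00773), Sema4d (3.04, adjusted p 0.0132) and Plxna3 (2.90, adjusted p 0.0152) rose, with Sema5a at 1.97 and 6.20 CPM in the 2 MASH libraries and at most 0.230 in chow. Nrp1, which encodes a coreceptor for class 3 semaphorins such as Sema3b, fell by a log2 fold change of -2.64 (adjusted p 0.0122), from 281, 469 and 683 in chow to 74.4 and 78.4 in MASH, and Sema6b fell by -1.68. Among the microtubule proteins 2 of 21 rose, Tubb2b (5.92, adjusted p 0.0136), a neuronal beta tubulin that stayed at 1.49 and 0.577 CPM in MASH with at most 0.0352 in chow, and Map4 (1.39, adjusted p 0.0135), a widely expressed microtubule-associated protein, from 29.0 to 41.6 in chow to 90.2 and 89.9.

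Among the adhesion G protein-coupled receptors 3 of 17 rose and 1 fell. Adgrl3 (3.44, adjusted p 0.0384) and Adgrg2 (2.54, adjusted p 0.0137) rose, the latter from 1.62 to 4.57 to 16.9 and 21.9, and Adgrf1 fell from 2.72, 13.9 and 4.31 to 0.0596 and 0 (adjusted p 0.0122). Adgre1, the other gene called higher, encodes the macrophage antigen F4/80 (1.76, adjusted p 0.0460), and macrophage markers were higher in MASH hepatocyte nuclei as given above. Among the BTB-Kelch proteins 1 of 38 rose, Kbtbd11 (4.36, adjusted p 0.00367).

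Of the 20 pan-neuronal markers, 13 had too few UMIs in hepatocyte nuclei to be tested. Of the 7 tested, 0 passed in edgeR's test, 2 had an unadjusted p under 0.05 (Eno2 and Map2, both higher in MASH), and 1 passed in DESeq2's. Map2 stood at 0.269 to 1.07 CPM in chow and at 2.09 and 2.55 in MASH (1.95, adjusted p 0.0749). Rbfox3, which encodes the neuronal nuclear protein NeuN, stood at 0.316 to 0.844 in chow and at 0.477 and 0.433 in MASH (-0.13, adjusted p 0.914), and Syp, which encodes the synaptic vesicle protein synaptophysin, at 1.11 to 2.46 and at 1.37 and 1.83 (-0.06, adjusted p 0.95). The label neuronal-type describes where the 7 members are best known. Calls among the pan-neuronal markers were 0 of 7 at this depth, where 9.26% of all genes passed as higher. The median log2 fold change of the 7 was 0.53. So few genes cannot show whether the members differ from pan-neuronal genes.

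Leaving out a MASH library leaves 1 sample in that arm, which is then assumed to vary like the chow libraries. Without MASH replicate 1, Sema5a and Kbtbd11 were the genes still called among the 22, and without MASH replicate 2 they were Tubb2b and Kbtbd11. Without chow replicate 2, 12 of the 22 were called, and without nuclei carrying 2 marker genes of another lineage 15 were. Leaving out 1 library, the fold changes of Sorl1 were 2.44 to 2.96 and those of Map4 1.28 to 1.5 on the log2 scale.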

How the data were processed

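Single-nucleus libraries of sorted liver nuclei (10x Genomics 3′ chemistry), 3 of chow and 2 of MASH, were analysed. The authors aligned reads with Cell Ranger 8.0.1 to the mm10 (GRCm38) reference without intronic reads, and the deposited values are raw UMI counts per gene and barcode, filtered to barcodes called as nuclei. Library totals were 35612373 to 49137377 UMIs. Fewer reads per nucleus limit detection, so shares were taken after thinning to 2000 UMIs, and intervals and floors cover counting error only. The 7 members, gene lists and tests were chosen with earlier results of these data known.

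UMIs were summed per library and class of nuclei (classes of 20 or more nuclei), and tested with edgeR 4.0.16 (R 4.3.3; TMM, filterByExpr, quasi-likelihood F test, Benjamini-Hochberg adjusted p under 0.05), with groups taken from the sample labels. Zone and marker classes of a library share its nuclei pool and are not independent samples. Co-detection was counted in Python 3.11.15. Doublets were scored with scanpy 1.11.5; its automatic threshold called 11, 2, 2, 1 and 0 barcodes and was not used, and as an alternative the highest scores were left out at a rate that rises with the number of barcodes (9.38% to 14.4% of hepatocyte nuclei). From each family list the 3 genes with the largest fold change among those called, with groups not overlapping, are named, as are genes among the 10 most like the members by mean log2 ratio (CPM + 5); some items are not reported here. Alternatives were RLE factors, no filter, DESeq2 1.42.0, Storey q-values, a replicate block, other gates and leaving out each library. The procedures were tested on simulated data.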

Additional observations from a re-analysis of the deposited data

Results flagged for a closer look

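The zonal difference of Enc1 in hepatocyte nuclei, pericentral minus periportal, was smaller in MASH than in chow by -1.42 on the log2 scale (SE 0.26, edgeR interaction test, adjusted p 0.00379). It stands here because a contrast differed between the 2 diets. All 3 chow libraries and both MASH libraries had the higher level on the pericentral side, and the call was lost without MASH replicate 2 (-1.25, adjusted p 0.0900) and with 2 zone classes in place of 3 (-0.98, adjusted p 0.0675; range over 10 alternatives 1.14e-05 to 0.0900). The cause was not tested.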

How the results depend on the processing

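Of the counts and shares that answer a comparison, 146 values under alternatives stayed within the limit for an unchanged result and 45 moved. Genes called lower in MASH hepatocytes (690) were 1345 with no filter, 1662 in DESeq2's test and 1814 with Storey q-values, which called 2589 higher (1427). In this section family genes are counted over the 7 lists and the pan-neuronal markers, of which 0 were called in the main test. Family genes called higher (18) were 33 with no filter, 29 in DESeq2's test (1 of them pan-neuronal) and 46 with Storey q-values, and those called lower (4) were 9 with either of the latter and 2 with at least 2 Hnf4a UMIs. Members called lower in the pericentral class of chow (0) were 1 with RLE factors, with no filter, without high doublet scores and without nuclei of 10% or more mitochondrial UMIs. The Enc1 interaction (1 call) gave 0 with 2 zone classes. Member calls between diets in other lineages (1) were 8 with no filter, 3 with 2 lineage markers and 0 without high doublet scores. At full depth 70.3% of MASH hepatocyte nuclei held a member.

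Leaving out 1 library gave 183 to 1976 genes higher and 33 to 1322 lower, 2 to 38 family genes higher and 0 to 9 lower, 3 to 4 members higher and 2 to 3 lower in the pericentral class of MASH, 0 to 2 lower in that of chow, 0 to 1 interactions, 1 to 5 members higher with daHep markers, 2 to 8 higher and 3 to 15 lower against hepatocytes over 6 lineages, and 0 to 1 between diets in lineages. Some differences near 0 turned: stellate-like Ephb2 (0.0504 with RLE factors, 0.0280 with no filter), cholangiocyte-like Sema3b (0.147, 0.0778 and, without high doublet scores, 0.0270; -0.17 to 0.13 leaving out 1 library), cholangiocyte-like Ntrk2 (-0.106 without high doublet scores; -0.0793 to 0.208) and B-like Sema3b (-10.15 to 0.27). The cause was not tested.

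Replicate numbers were shared across diets, but same-numbered libraries did not deviate together (r of -0.13 and -0.20 over 15414 genes). With the replicate block, 1253 genes were called higher and 684 lower in hepatocytes, 20 and 4 family genes, and 17 of the 22 family calls were kept. With 2 MASH libraries, depth and number both limit what can be called.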
